A study of Mus musculus with 444 samples.

Results

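Basal cells of the adult mouse mammary gland, also called myoepithelial cells, are described here from single-cell RNA sequencing of sorted epithelium. They were picked by their own transcripts. A cell had to hold at least 100000 read pairs and 1500 detected genes once genes of mitochondria and of ribosomal proteins had been set aside. It then had to reach 50 CPM (read pairs scaled to the same total in every cell) for at least 3 of 8 basal genes (Krt14, Krt17, Acta2, Tagln, Myh11, Mylk, Cnn1 and Oxtr). That number also had to be above its number of mature luminal genes (Prlr, Ly6d, Ly6a, Cited1, Prom1, Foxa1, Esr1 and Areg) and of luminal progenitor genes (Kit, Elf5, Ltf, Trf, Wfdc18, Csn3, Lalba and Aldh1a3). Of 152 adult cells that passed the coverage filter, 101 met this rule (66.4%, 95% interval 58.3 to 73.9%), out of 444 cells in the series. The other 51 adult cells comprised 29 of the mature class, 12 of the progenitor class and 10 that fell in no class. Because the rule reads the transcripts themselves, the values below describe the cells it picked, and none of them was tested.

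The basal layer lies outside the luminal cells of the duct and rests on the basement membrane. Its cells carry the keratins of stratified epithelia together with the actin and myosin of smooth muscle. They contract when oxytocin, released during suckling, binds its receptor, and so push milk along the ducts. The basal layer is also known for secreting laminins and growth factors and for the transcription factor p63, which the gene Trp63 encodes.

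The study asked how epithelial cells of the gland differ from each other and between puberty and adulthood. All cells came from female FVB/NJ mice, an inbred strain, and no genetic change or treatment was named. Cells negative for Ter119, CD31 and CD45, which mark red cells, endothelium and leukocytes, and positive for CD24 were captured without culture in the chambers of a Fluidigm C1 device, 1 cell to a chamber. The file headers put the adult mice at 10 weeks and the pubertal mice at 4 weeks, and the study's text gives a slightly older age for puberty. Glands of several mice were pooled for a sort, and no label ties a cell to a mouse, a sort or a capture. Each stage was therefore a group of 1 sample, made of 221 pubertal and 223 adult cells, and all intervals below cover counting error only.

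The adult cells numbered 48 to 188 in their titles were treated as a set. They were chosen as the longest run of title numbers in which every retained adult cell had reads of Rn7sk, the 7SK small nuclear RNA. Such reads also occurred in 6 of the 19 adult basal cells and 2 of the 26 other adult cells outside this run. Among the 54 pubertal basal cells, 18 had them. The rule called 82 of the 107 retained cells in this run basal (76.6%, 67.5 to 84.3%) and 19 of the 45 with other numbers (42.2%, 27.7 to 57.8%). Results are therefore also given within each of these sets. Read pairs on the genes used ranged from 100883 to 1040942 per adult basal cell, with a median of 319764. The median share of read pairs on mitochondrial genes was 12.6% in adult basal cells, 9.82% in the other adult cells and 6.78% in pubertal basal cells. To set cells side by side, each was thinned to 100000 read pairs, so that 1 read pair is worth 10.0 CPM in a cell. At this depth the median adult basal cell had 2878 genes (2985 in cells 48 to 188 and 2228 in the others), against 2215 in the other adult cells and 2810 in pubertal basal cells.

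Levels of 5 marker genes are given first. All 5 are basal rule genes, so their levels in basal cells were set in part by the choice of cells and are a description. Basal markers that the rule did not use are Krt5 (log2 ratio of basal over other adult cells 3.49) and Trp63 (detected in 58.4% of basal and 11.8% of the other adult cells), both described further on. Acta2, the actin of smooth muscle (gene 11475; mm10 chromosome 19, 34240336 to 34255585), was detected in all 101 adult basal cells, at 80.0 CPM in the lowest, 5850 in the median and 51950 in the highest. In the other adult cells its highest value was 2850 CPM, and 69 of the 101 basal cells lay above that value. Summed over cells, its level was 8111 CPM against 169, a log2 ratio of 5.57 (interval 5.48 to 5.67). For Acta2, the cells of the 2 groups thus overlapped at the low end of the basal range only. For Krt14 the overlap was wider, since 43 of the 101 basal cells lay above every other adult cell. Krt14, a keratin of the basal layer (gene 16664; chromosome 11, 100203162 to 100207510), ran from 0 through a median of 1600 to 21970 CPM and was absent from 1 basal cell. Its summed level was 2857 CPM against 72.4, a log2 ratio of 5.28 (5.14 to 5.43). Krt17, a keratin that often pairs with Krt14 (gene 16667; chromosome 11, 100256215 to 100261029), ran from 0 through 1140 to 17470 CPM, with a log2 ratio of 5.55 (5.39 to 5.72).

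The remaining markers belong to the contractile apparatus. Myh11, the heavy chain of smooth muscle myosin (gene 17880; chromosome 16, 14194527 to 14292188), was found in 99.0% of adult basal cells, with a median of 1240 and a highest value of 9790 CPM. Its sum was 1814 CPM against 63.7, a log2 ratio of 4.81 (4.65 to 4.97). Cnn1, the actin-binding protein calponin (gene 12797; chromosome 9, 22099221 to 22109221), had a median of 410.0 and a highest value of 12120 CPM, against at most 140.0 CPM in any other adult cell. Cnn1 had the widest gap of the 5 markers, with a log2 ratio of 6.81 (6.44 to 7.20). All 5 markers were higher in basal cells within both sets of adult cells. The log2 ratios were 3.94 to 6.19 in cells 48 to 188 and 6.63 to 10.55 in the others, so the contrast was narrower in the run that held most basal cells.

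**Figure D1:**
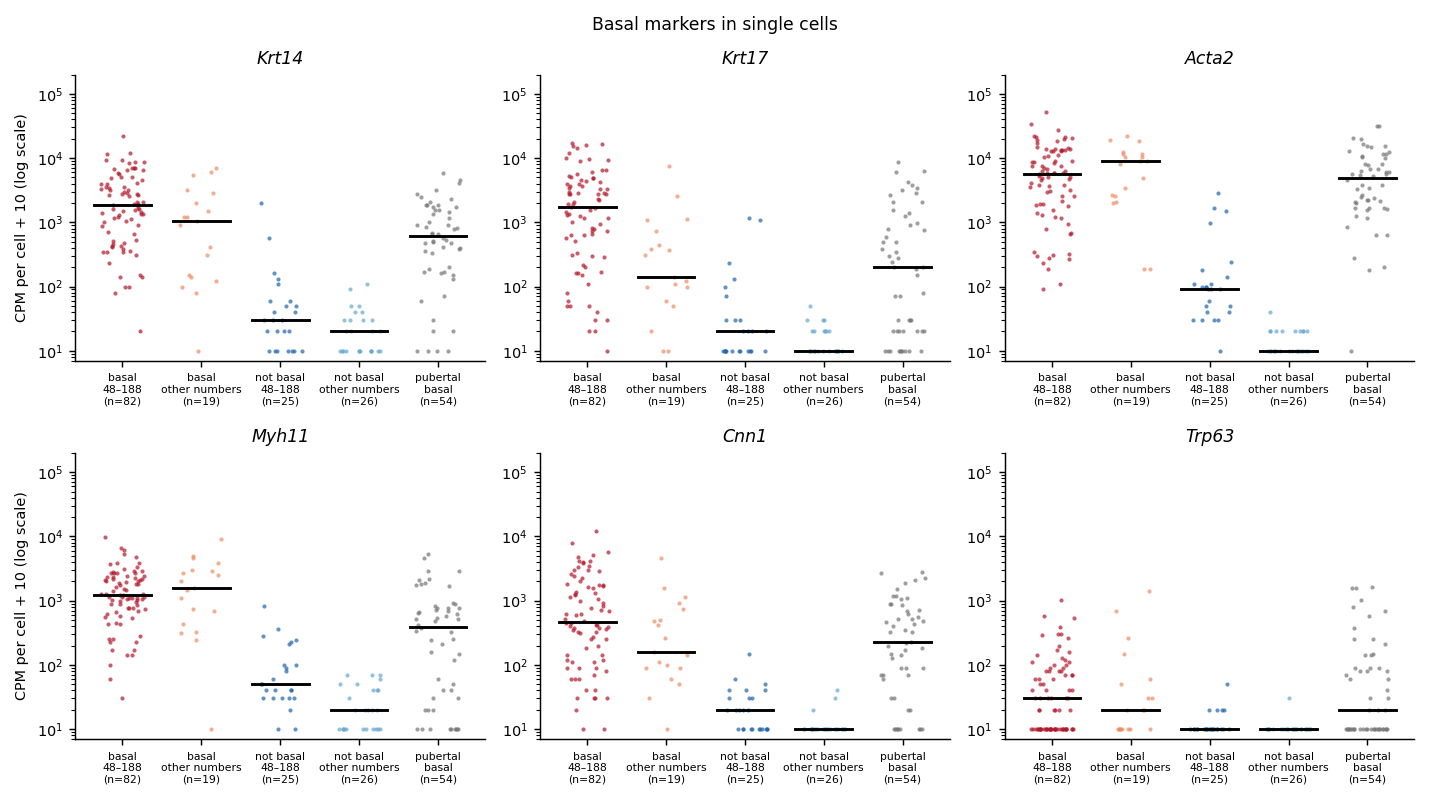
Levels of 5 basal markers and of Trp63 in single cells (each point is a cell; CPM after thinning to 100000 read pairs, plus 10, on a log axis; black bars are medians). Adult cells comprise 82 basal cells in the run 48 to 188 and 19 outside it, and 25 and 26 that are not basal. The adult basal cells mostly sit above the adult cells that are not basal, with overlap. Above every other adult cell lie 43 basal cells for Krt14, 50 for Krt17 and 69 for Acta2. The 54 pubertal basal cells cover a similar range, and Trp63 is at 0 in 42 of the adult basal cells.

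The narrower contrast lay mainly in the cells that are not basal. Acta2 was detected in 96.0% of the non-basal cells numbered 48 to 188, at a summed level of 340.4 CPM, and in 38.5% of those with other numbers, at 4.62 CPM. Tagln, which encodes the actin-binding protein transgelin, was detected in 88.0% and 30.8% of them. For Krt5 these shares were 68.0% and 7.69%, and for Cnn1 56.0% and 11.5%. Low amounts of basal transcripts were thus common in the non-basal cells of the run and sparse outside it. What these reads stem from was not tested.

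By number of basal rule genes alone, few of the cells picked stood near the limit of 3. Of the 8 basal rule genes, the adult basal cells reached 50 CPM for 4 genes in 4 cells, 5 genes in 5 cells, 6 genes in 18 cells, 7 genes in 41 cells and all 8 genes in 33 cells. The 4 cells with the lowest count held 1 or 2 mature and 1 to 3 progenitor genes. How far the basal number stood above the luminal numbers in each cell was not examined. At least 4 progenitor genes were reached by 15 of the 101 adult basal cells, and at least 4 mature genes by 9. Just outside the limit stood 12 adult cells with 3 to 6 basal genes, of which 5 were called mature, 3 progenitor and 4 no class because of a tie. All 12 had numbers from 48 to 188. By level the classes were less apart, since some cells picked as basal had basal genes little above 50 CPM beside high luminal transcripts. Cell 177 had 220 CPM of Acta2 and 85460 of Trf, cell 75 had 80 CPM of Acta2 and 25070 of Wfdc18, and cell 67 had 100 CPM of Acta2 and 26420 of Csn3.

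Genes were compared between classes on sums over cells. A gene was measured if it reached 20 CPM in either class, log2 ratios used a prior of 1 CPM, and a gene was counted if it differed at least 4-fold. Among 7672 genes measured between adult basal and other adult cells, 15.6% were at least 4-fold higher in basal cells and 13.5% at least 4-fold lower, with a median log2 ratio of 0.04. Within cells 48 to 188 these shares were 24.9% and 13.2% and the median was 0.37. With other numbers they were 21.2% and 26.5% and the median was −0.18, and ratios within a set are to be read against its median.

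Of the 6 keratin and intermediate filament genes of basal cells, 5 were at least 4-fold higher, against 15.6% of all genes, and the median log2 ratio was 5.00. The rule used Krt14 and Krt17. Among the 4 genes it did not use, 3 were at least 4-fold higher, with a median of 4.10. Krt15, a keratin found in the basal layer of several epithelia, had 173 CPM in basal cells and 1.57 CPM in the others, and 54.5% of basal cells detected it. Krt5, the usual partner of Krt14, had 275 CPM against 23.5, a log2 ratio of 3.49, and 1 cell held 77.5% of the reads in the other adult cells. Synm encodes synemin, an intermediate filament protein of muscle, and was detected in 33.7% of basal cells, 1 of which held 36.9% of its reads. Vim, which encodes vimentin, differed least, with a log2 ratio of 0.50 that was 4.49 in cells 48 to 188 and −1.38 in the others.

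All 21 genes of the actin-myosin list were measured, with a median log2 ratio of 3.83. At least 4-fold higher in adult basal cells were 16, against 15.6% of all genes, and none was at least 4-fold lower. The rule used 5 of the 16 (Acta2, Myh11, Mylk, Tagln and Cnn1), and among the 16 genes it did not use 11 were at least 4-fold higher, with a median of 3.49. The same number reached 4-fold within cells 48 to 188 and with other numbers, where the medians were 3.07 and 5.04. Tagln had 5740 CPM against 85.9, with values of 20.0, 3570 and 32100 CPM in the lowest, the median and the highest basal cell. Actg2, the second smooth muscle actin, was patchier, since 42.6% of basal cells detected it at a summed level of 310.2 CPM. The other adult cells held 1.96 CPM of Actg2, a log2 ratio of 6.72.

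Proteins that regulate the filaments followed the same direction. Mylk, the kinase that phosphorylates myosin light chain, had 839 CPM against 70.6, and Myl9, the light chain itself, 1136 CPM against 44.3. Tpm2, a tropomyosin that covers the actin filament, had a log2 ratio of 3.83, and Cald1, which encodes caldesmon, 3.33. Lmod1, an actin nucleator of smooth muscle, had a log2 ratio of 4.13, with 31.1% of its basal reads in 1 cell. The 5 genes under 4-fold were Myl6, Smtn, Actn1, Vcl and Csrp1, whose log2 ratios lay between 0.90 and 1.84. Among these, Actn1 and Vcl belong to focal contacts, which many cell types form.

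Levels of different genes can be set side by side only per length. Per kilobase of gene model, Acta2 stood at 4557 CPM in adult basal cells, Tagln at 3619, Krt17 at 1836, Krt14 at 1721, Myl9 at 1049 and Cnn1 at 598. Myh11 stood at 273 and Mylk at 107, so the myosin heavy chain and its kinase were rarer than the actin and the keratins. The secreted protein Lcn2, at 4033, came near Acta2 on this scale.

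Many smooth muscle genes are known to carry a CArG box, the site bound by serum response factor, near their start. The box was searched as 2 C, then 6 bases that are each A or T, then 2 G, a form that reads the same on both strands. In the 250 bases before the start, from the RefSeq promoter table for GRCm38.p6 (the assembly of mm10), 1.62% of 27025 genes held an exact box. Of the 17 contraction genes with a promoter in the table, 3 held one (Myl6, Myl9 and Vcl). With 1 of the 6 middle bases allowed to be C or G, Acta2 was added, which made 4 of 17, against 9.78% of all genes. None of the 12 milk and progenitor genes and none of the 4 keratin genes with a promoter held an exact box. The upstream sequences of Myl9 (chr2:156775214-156775407, plus strand) and Vcl (chr14:20929148-20929382, plus strand) are shown because both hold an exact box while their ratios differ. They are cut before every annotated start of the gene, and capitals mark the boxes.
Myl9: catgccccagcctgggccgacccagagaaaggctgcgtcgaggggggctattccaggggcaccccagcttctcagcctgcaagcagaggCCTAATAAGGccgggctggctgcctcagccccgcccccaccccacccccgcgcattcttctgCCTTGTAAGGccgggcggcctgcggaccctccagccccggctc
Vcl: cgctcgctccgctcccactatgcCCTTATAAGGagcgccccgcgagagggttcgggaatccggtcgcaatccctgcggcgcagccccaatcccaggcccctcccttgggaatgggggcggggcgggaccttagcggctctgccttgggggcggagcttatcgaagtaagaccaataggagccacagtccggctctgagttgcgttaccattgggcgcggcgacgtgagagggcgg

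The first box of Myl9 is exact and starts 161 bases before the table's start, and its second box, at 99 bases, has 1 other base. The box of Vcl is exact and lies 227 bases before the start. The window of Acta2 held CCCTATATGG and CCTTGTTTGG, each with 1 other base, and both lie where an alternative first exon of the gene is annotated. Myl9 had a log2 ratio of 4.65 between adult basal and other adult cells, and Vcl, which encodes the focal contact protein vinculin, 0.90. An exact box in this window was thus found with a wide and with a narrow contrast alike, and the window says nothing of sites elsewhere.

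Genes that carry the signal for contraction differed less than the filaments. Of 23 genes, 17 were measured, 5 were at least 4-fold higher in adult basal cells and the median log2 ratio was 0.62. Oxtr, the oxytocin receptor (gene 18430; chromosome 6, 112473683 to 112491035), had 0, 30.0 and 5590 CPM in the lowest, median and highest basal cell. It was detected in 75.2% of basal cells and 29.4% of the others, with sums of 274 and 13.1 CPM. The log2 ratio of Oxtr was 4.28 (3.95 to 4.62), and 1 cell held 20.2% of the basal reads. Behind the receptor, Itpr1, the calcium release channel, had 118 CPM against 15.5, and Prkg1, the kinase that relaxes smooth muscle on cyclic GMP, 103 against 13.1.

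Most shared components of the pathway were at similar levels. Gnaq, the G protein subunit that couples to the oxytocin receptor, had a log2 ratio of 0.38, Rhoa −0.20, Rock1 0.30 and the myosin phosphatase subunit Ppp1r12a 0.43. Ednra, a receptor for endothelin, had 21.4 CPM in basal cells and no read in 51 other cells, which is at least 36.4-fold higher, but 78.7% of its reads came from 1 cell. Jph2, which joins internal calcium stores to the cell surface in muscle, was detected in 5.94% of basal cells.

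Among transcription factors of the basal layer and of smooth muscle, 12 of 15 were measured, with a median log2 ratio of 1.15. At least 4-fold higher were 5, against 15.6% of all genes. Trp63, needed for stratified and basal epithelia (gene 22061; chromosome 16, 25683763 to 25892088), was detected in 58.4% of basal cells, with a median of 10.0 and a highest value of 1390 CPM. In the other adult cells it was detected in 11.8%, and the sums were 85.3 and 1.96 CPM. Snai2, a zinc finger factor of basal cells, had 57.6 CPM against 0.392, which was 2 reads, and a log2 ratio of 5.40 (4.59 to 5.81). Id4, an inhibitor of helix-loop-helix factors, had a log2 ratio of 4.57, and Mef2c, a muscle factor, 3.99.

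The factors that act on the CArG box were sparse or near 0 as transcripts. Srf, which binds the box, had 52.9 CPM in adult basal cells and 22.4 in the others, and 42.6% of basal cells detected it. Myocd, its coactivator in smooth muscle, had 1 read in 1 of 101 basal cells. Mrtfa was detected in 8.91% of basal cells and Mrtfb in 37.6%, with 76.4% of the Mrtfb reads in 1 cell. Yap1, Wwtr1 and Tead1, which read mechanical tension in many cell types, had log2 ratios of 0.39, −0.01 and 0.79.

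Of the integrin and hemidesmosome genes, 12 of 15 were measured, with a median log2 ratio of 2.02. At least 4-fold higher were 6, against 15.6% of all genes, and 2 were at least 4-fold lower, against 13.5%. Col17a1, a transmembrane collagen of hemidesmosomes, had 198 CPM against 12.2, a log2 ratio of 3.92. Pdpn, the surface protein podoplanin, had 446 CPM against 7.84, and its ratio was nearly the same in both sets of adult cells (5.58 and 5.71). Cdh3, or P-cadherin, the cadherin of the basal layer, had a log2 ratio of 4.75 with 60.3% of its basal reads in 1 cell. On the other side, Itgb6, an integrin subunit of epithelia, had 7.03 CPM in basal cells and 234 in the others, a log2 ratio of −4.87. Itga6 and Itgb1, which sorting schemes use for basal cells, differed less, with log2 ratios of 1.97 and 0.97.

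Of 16 measured basement membrane genes, 7 were at least 4-fold higher, against 15.6% of all genes, with a median log2 ratio of 1.75. Col18a1, whose product bears the endostatin domain, had 107 CPM against 0.784, and Lamb3, a chain of laminin-332, 133 CPM against 3.14. Lama1, a laminin chain of early basement membranes, had 109.7 CPM against 3.92, with 41.7% of its basal reads in 1 cell. Nid1, which links laminin to collagen IV, was the only measured gene at least 4-fold lower, with 101 CPM against 627 and a log2 ratio of −2.62, and 3 further genes had a ratio below 0. In cells 48 to 188 the ratio of Nid1 was 6.56 and outside the run −3.19. The 25 non-basal cells of the run held no read of Nid1, so the value of 6.56 depends on the prior of 1 CPM.

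The number of these genes past 4-fold depended on which cells were compared, some of which detected markers of fibroblasts. Fibroblasts also make basement membrane proteins, and the source of the reads was not tested. None of the 25 non-basal cells numbered 48 to 188 detected 3 or more of 8 fibroblast markers (Col1a1, Col1a2, Col3a1, Pdgfra, Dcn, Lum, Dpt and Col6a3), which limits the share of cells with such reads at this depth to 12.0%, while 6 of the 26 with other numbers did. Without those 6 cells, the number of basement membrane genes at least 4-fold higher was 11 and Nid1 had a log2 ratio of 2.42. Within cells 48 to 188 it was also 11 of 16, against 24.9% of all genes there, 1 (Lamb2) was lower, and the median was 3.42. In that run, however, 9 of the 82 basal cells detected 3 or more fibroblast markers. Of 4 fibroblast markers measured there, 3 (Col3a1, Dcn and Dpt) were at least 4-fold higher in basal cells, so fibroblast reads lay on the basal side. Over all adult cells, the sign for Nid1 depended on those 6 cells that are not basal.

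Of 23 secreted signals and inhibitors, 18 were measured, with a median log2 ratio of 3.99. At least 4-fold higher in adult basal cells were 13, against 15.6% of all genes, and none was lower. In cells 48 to 188, 15 of 18 were higher, against 24.9% of all genes. Outside the run, 9 of 15 were higher, against 21.2%, and 1 was lower (Il33, −5.21). Nrg1, or neuregulin, a ligand for ErbB receptors on luminal cells (gene 211323; chromosome 8, 31807452 to 32891609), had 0, 10.0 and 3890 CPM in the lowest, median and highest basal cell. Its sum was 181 CPM against 2.35, a log2 ratio of 5.76 (5.15 to 6.36). Dll1, a Notch ligand, had 87.0 CPM against 4.90, and Cxcl14, a chemokine, 193 against 22.7 with 92.1% of basal cells detecting it. Igfbp3, which binds insulin-like growth factors, had a log2 ratio of 4.36, while Igfbp5 was high in both classes at 1945 and 2290 CPM.

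Wnt ligands and Wnt inhibitors were found side by side. Wnt10a had 63.8 CPM from 18.8% of basal cells and no read in the other 51 adult cells, which limits the share of cells with a read at this depth to 5.88%, not the share that expresses the gene, and was at least 108-fold higher. Wnt6 was at least 41.4-fold higher by the same measure, but 97.2% of its reads came from 1 cell. The inhibitors were more widespread, with Sfrp1 in 53.5%, Wif1 in 58.4% and Dkk3 in 48.5% of basal cells, and their log2 ratios were 5.43, 4.09 and 4.30. Ccn2, a matrix protein and target of mechanical signalling, had 237 CPM against 8.43. Setting Wnt6, Wnt10a and Ednra at their bounds leaves the list medians where they are, since each lies above its median either way.

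Of 18 receptors and surface proteins tied to basal or stem cells, 16 were measured, 3 were at least 4-fold higher (18.8%, against 15.6% of all genes) and 1 lower, and the median log2 ratio was 0.77. In cells 48 to 188, 7 of 16 were higher, against 24.9% of all genes. Lgr5, a receptor for R-spondins, had 79.2 CPM against 5.69 and was detected in 46.5% of basal cells. Its relative Lgr4 had 436 CPM against 92.9 and was detected in 89.1%. Gfra1 was at least 50.5-fold higher, with 97.0% of its reads in 1 cell. Procr, a surface marker used for mammary stem cells, was detected in 8.91% of basal cells, and Tspan8 in 35.6%. Cd55, which encodes a complement regulator, was lower, with 37.2 CPM against 242.

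**Figure D2:**
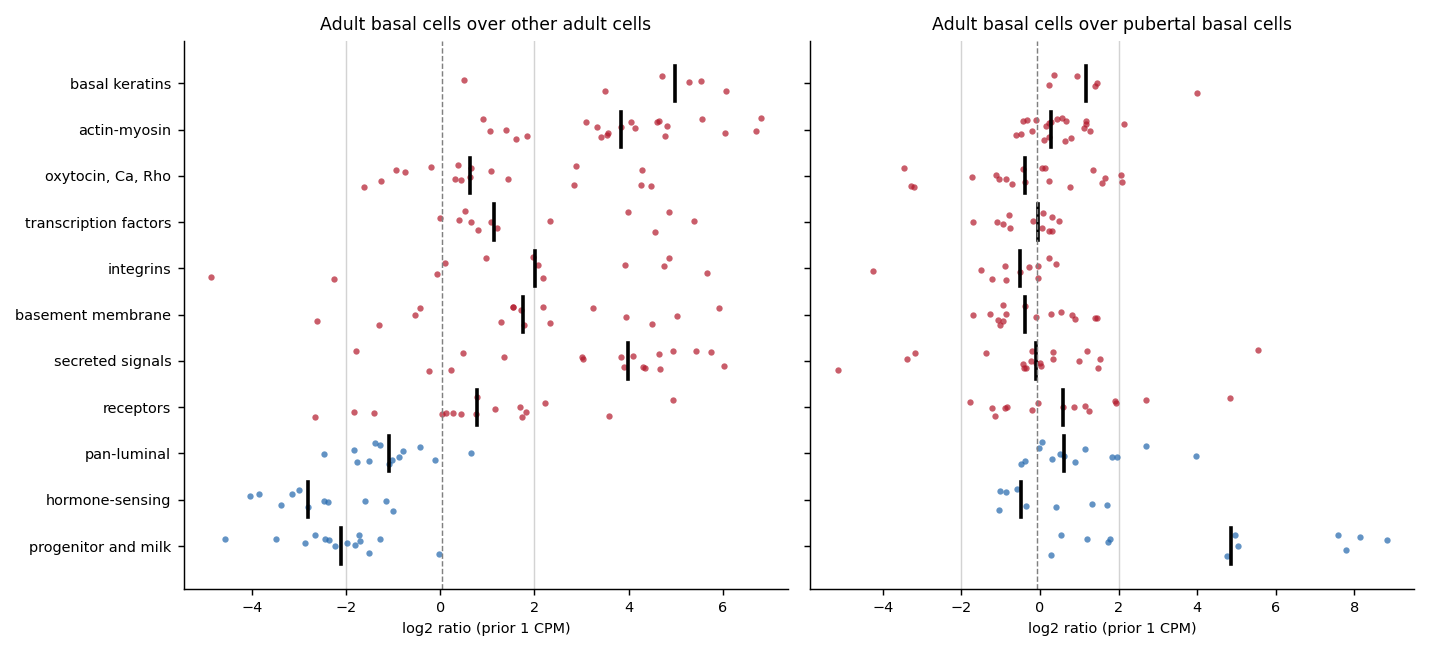
Log2 ratio of each measured gene in 11 lists, for adult basal cells over other adult cells (left) and over pubertal basal cells (right). Points are genes, black bars list medians, the dashed line the median of all genes and light lines the 4-fold limits; the contraction list has a median of 3.83 on the left and 0.29 on the right, and the milk list −2.12 and 4.86.

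Basal cells also held luminal transcripts. Of 13 pan-luminal genes, 1 (Krt7) was at least 4-fold lower than in the other adult cells, against 13.5% of all genes, and the median log2 ratio was −1.10. In cells 48 to 188, 4 were lower (Krt7, Krt18, Krt19 and Cldn4), against 13.2% of all genes. Krt18, a keratin of luminal cells, ran from 0 through a median of 520.0 to 18410 CPM in adult basal cells and was detected in 93.1% of them, at a sum of 2087 CPM against 7176. Epcam, an adhesion protein of epithelia, was detected in 96.0% of basal cells, at 1006 CPM. Of 11 hormone-sensing genes, 8 were at least 4-fold lower, against 13.5% of all genes, with a median of −2.81, but 7 of the 8 are mature genes of the rule. Among the 3 measured genes that the rule did not use, 1 was at least 4-fold lower. Of these, Wnt4 had a log2 ratio of −3.40, Pgr, the progesterone receptor, −1.61 and Stc2 −1.15. Prlr, the prolactin receptor, had 1098 CPM in basal cells and 6144 in the others. Esr1, the oestrogen receptor, had 5.64 CPM against 109, a log2 ratio of −4.05 that was −0.01 in cells 48 to 188, where Esr1 did not reach 20 CPM in either class.

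The list of luminal progenitor and milk genes had a median log2 ratio of −2.12, with 7 of 14 measured genes at least 4-fold lower, against 13.5% of all genes. The rule used 5 of the 7 (Kit, Ltf, Csn3, Lalba and Aldh1a3). Of the 7 measured genes it did not use, 2 were at least 4-fold lower (Csn1s2a, −2.46, and Csn2, −2.66), and the median was −1.73. Within this list the basal cells were uneven. Lcn2, a secreted iron-siderophore binder, stood at the same summed level in both classes (3440 and 3531 CPM) and was detected in 98.0% of basal cells. Trf, which encodes transferrin, ran from 0 through 230.0 to 85460 CPM, the last in cell 177, which had the lowest contraction sum, and Csn1s1, a casein, from 0 through 10.0 to 26110 CPM. Csn1s1 (gene 12990; chromosome 5, 87666208 to 87682578) was detected in 52.5% of adult basal cells and in 48.3% of the adult mature class. Its summed levels there were 978 and 764 CPM, and 10198 in the progenitor class. A single cell held 96.1% of the reads in the mature class, whose level without it was 31.1 CPM, and the highest adult basal cell held 26.4% of the basal reads.

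The 2 sets of adult basal cells held different milk transcripts. In cells 48 to 188, Trf was detected in 95.1% of basal cells, Wfdc18 in 84.1% and Spp1 in 73.2%. In the cells with other numbers these shares were 52.6%, 26.3% and 5.26%. For Csn1s2a and Csn2 the order was the opposite, at 17.1% and 11.0% inside the run and 63.2% and 57.9% outside it. Csn1s1 was detected in 52.4% and 52.6%. At least 1 read of Csn1s1, Csn1s2a or Csn2 was present in 55 of 101 adult basal cells (54.5%, 44.2 to 64.4%), in 34 of 51 other adult cells (66.7%) and in 5 of 54 pubertal basal cells (9.26%, 3.08 to 20.3%).

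**Figure D3:**
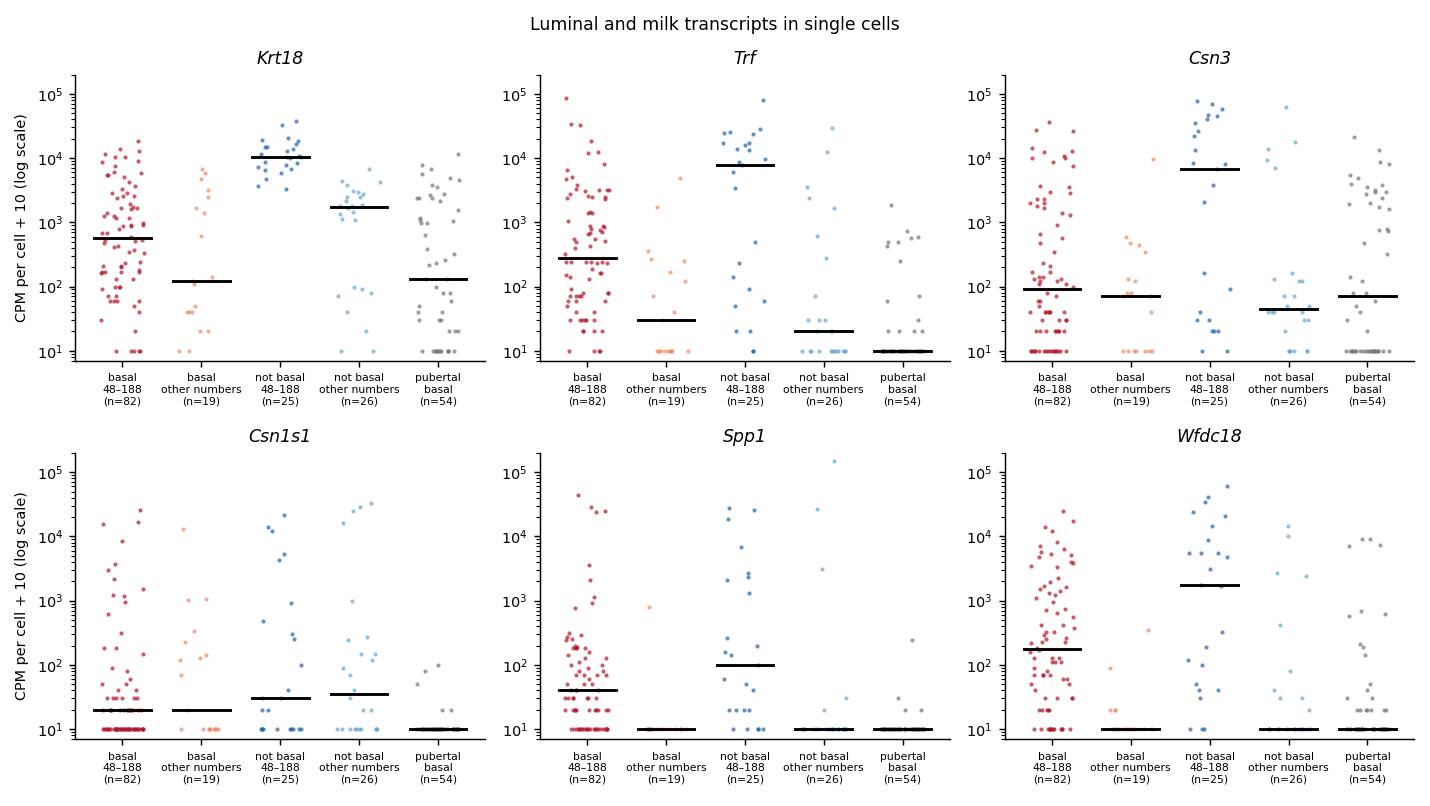
Levels of 6 luminal and milk genes in single cells (each point is a cell; CPM after thinning plus 10, on a log axis; black bars are medians), in the same groups as the plot of basal markers. Trf, Wfdc18 and Spp1 are mostly above 0 in adult basal cells numbered 48 to 188 and mostly at 0 or low in pubertal basal cells, and Csn1s1 divides adult basal cells in both sets.

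Rule genes at 50 CPM or more were also counted per cell, where the rule itself keeps the luminal counts of a basal cell below its basal count. Of 101 adult basal cells, 45 (44.6%, 34.7 to 54.8%) reached at least 3 of the 8 progenitor genes, and 19 (18.8%, 11.7 to 27.8%) at least 3 of the 8 mature genes. The first share was 52.4% in cells 48 to 188 and 10.5% in the others, and the second 17.1% and 26.3%. Among the other adult cells 43.1% reached 3 progenitor and 64.7% 3 mature genes, and among pubertal basal cells 9.26% and 40.7%. No mature and no progenitor gene at all was found in 8 cells (7.92%). The source of these reads was not tested. The study inspected its chambers by microscopy for lone cells, and no doublet caller was run here.

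Markers of other cell types were mostly low in adult basal cells. The immune list was at 0 for 6 of 7 genes, which limits the share of cells with a read of each at this depth to 2.97% of 101, and its summed level ran from 0 to 20.0 CPM. The endothelial sum ran from 0 to 580.0 CPM with a median of 0, and Kdr was at 0. The pericyte and vascular smooth muscle sum ran from 0 through 10.0 to 1810 CPM, against a highest value of 2750 in the other adult cells. Rgs5 and Cspg4, which define pericytes, had 1 read each, Kcnj8 was at 0, and 2 basal cells detected 3 or more of the 8 genes. Mcam, also of this list, went the other way. Within the run 2 of the 8 genes were measured between basal and other adult cells. Mcam was at least 4-fold higher in basal cells (log2 ratio 2.16) and Pdgfrb at least 4-fold lower (−4.01). Over pubertal basal cells the same 2 genes were measured, with log2 ratios of 2.05 for Mcam and −1.98 for Pdgfrb. The fibroblast sum ran from 0 through 20.0 to 25980 CPM, with 34.3% of it in 1 cell, and 11 basal cells (10.9%) detected at least 3 of 8 fibroblast genes. Its highest value in the other adult cells was 30880 CPM.

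Genes outside the lists were named by rank. Among genes detected in at least 50% of adult basal cells and higher within both sets, Il17b led with a log2 ratio of 6.16, followed by Plekhb1 at 5.58, Mdk at 5.43, Ext1 at 5.21, Lhfp at 5.19 and Arc at 5.18. Il17b encodes a cytokine and was at 183 CPM against 1.57. Mdk encodes midkine, a heparin-binding growth factor, and Ext1 an enzyme that builds heparan sulfate chains. Apoe, a lipid carrier, had 3432 CPM against 117, and Postn, the matrix protein periostin, 2228 against 113. Both were found in nearly every basal cell (99.0% and 98.0%). Msrb3, Vcan, Crispld2 and Pros1 completed the 12 genes, with log2 ratios of 4.32 to 4.71.

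On the lower side, Lmo7 had a log2 ratio of −3.69, with 6.93 CPM in basal cells and 101 in the others. Tph1, the enzyme that starts serotonin synthesis, had 102 CPM against 1106, and Glul, or glutamine synthetase, 44.6 against 473. The interferon-induced gene Iigp1 had a log2 ratio of −3.39, the same as Fxyd2, a subunit of the sodium pump. AW112010, Dipk1a, Mboat1, Yif1a and Acot2 lay between −3.27 and −2.74.

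Adult basal cells differed widely among themselves in how much contraction transcript they held. The sum over the 21 contraction genes was 1470 CPM in the lowest cell, 24100 in the median and 114660 in the highest, and each cell detected 12 to 21 of the genes, with a median of 17. The other adult cells ran from 60.0 through 1290 to 10330 CPM, with a median of 10 genes. The sum of basal keratins ran from 200.0 through 4910 to 26190 CPM. Across the 101 cells, the contraction sum went with the keratin sum (Spearman's rho 0.68; 0.70 in the run and 0.73 outside it). It went against the pan-luminal sum (rho −0.40, with −0.35 and −0.60). With the milk and progenitor sum, rho was −0.06 over all cells, −0.17 in the run and 0.38 outside it, so the sign differed between the sets.

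These coefficients describe cells that share an amplification and a scaling to 1 total, in which a high transcript lowers all others. The contraction sum also went with the number of read pairs of the cell (rho 0.34) and with the summed dissociation response, which includes Fos and Atf3 (rho 0.23). Between single genes the relation was looser. Over 91 pairs of 14 contraction genes the median rho was 0.35, the highest was 0.70 for Acta2 with Tpm2 and the lowest −0.07 for Myl6 with Vcl.

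**Figure D4:**
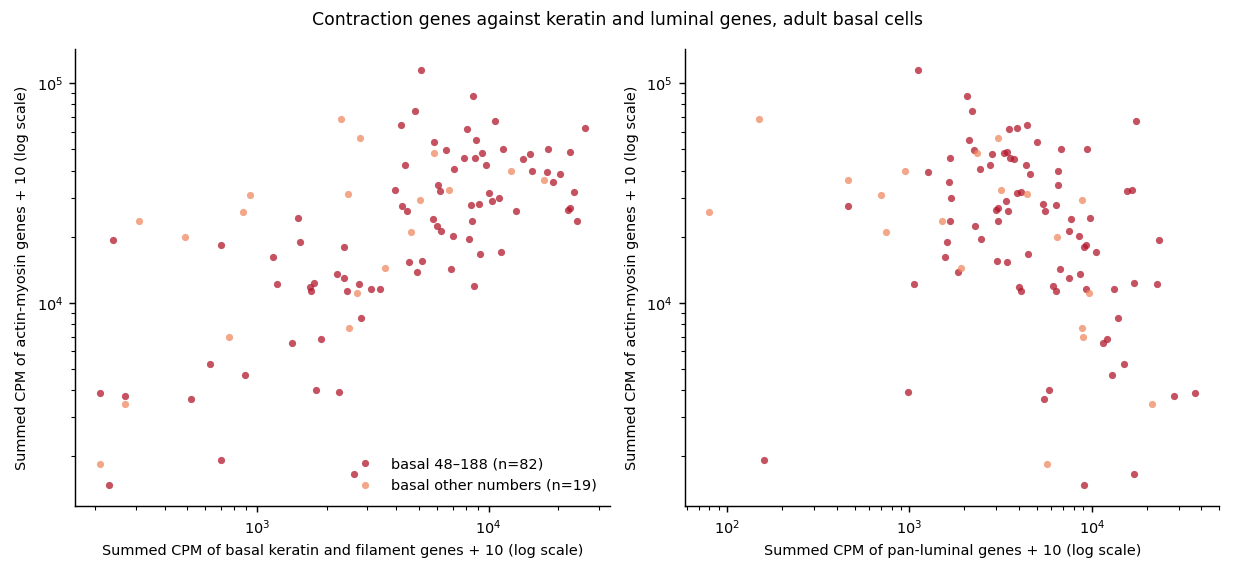
Summed CPM of the actin-myosin list in each adult basal cell against the sum of the basal keratins (left) and of the pan-luminal genes (right), on log axes. Points are cells, 82 from the run 48 to 188 and 19 from other numbers; the relation runs upward on the left (rho 0.68) and downward on the right (rho −0.40).

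Expression in part of the cells was also ranked. Of 1753 genes detected in 25% to 60% of adult basal cells at shares within 20 percentage points in both sets, the 10 highest among the cells that detect them were Commd3, Ndufv2, Rnh1, Brk1, Rtcb, Cwc15, Fis1, Mocs2, Dnajc15 and Ifi27. Their medians in detecting cells ran from 210.0 to 470.0 CPM. Most of these are housekeeping genes, such as Ndufv2 of respiratory complex I and Fis1 of mitochondrial fission. Commd3 was detected in 34.7% of adult basal cells, at 470.0 CPM where present. Genes of general function thus also appeared in part of the cells only, and patchy detection at this depth says little of cell state.

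Cell cycle genes were uneven. At least 3 of 15 such genes were detected in 47.5% of adult basal cells (53.7% in the run and 21.1% outside it), in 15.7% of the other adult cells and in 51.9% of pubertal basal cells. Rrm2, a subunit of ribonucleotide reductase, had 132 CPM against 4.90 in the other adult cells. Mki67 and Top2a were detected in 26.7% and 31.7% of adult basal cells. The dissociation response had a median sum of 6350 CPM in adult basal cells (5560 in the run and 11260 outside it), 5170 in other adult cells and 4175 in pubertal basal cells.

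The same rule picked 54 of 171 retained pubertal cells as basal (31.6%, 24.7 to 39.1%). Among 7661 genes measured between adult and pubertal basal cells, 8.54% were at least 4-fold higher in the adult and 10.9% at least 4-fold lower, with a median log2 ratio of −0.07. Adult cells with numbers 48 to 188 and those outside the run are given in that order where a ratio is split. Age and any difference of sort or capture cannot be told apart.

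The contraction list had a median log2 ratio of 0.29, with 1 of 21 genes (Lmod1, 2.14) at least 4-fold higher, against 8.54% of all genes, and none lower. Acta2 was at 8111 CPM in the adult and 6915 in puberty. Myh11 had 1814 CPM against 751, with a log2 ratio of 1.27 (split 1.19 and 1.57), and Cnn1 1.18 (1.34 and 0.18). Krt14 had a log2 ratio of 1.45 (1.57 and 0.76), while Krt17, at 1.40, was higher in the run and lower outside it (1.62 and −0.42). Synm differed most among the keratins and filaments, with 112 CPM against 6.11. Trp63 and Snai2 were lower in the adult cells, with log2 ratios of −1.09 and −1.71, and no transcription factor of the list passed 4-fold.

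Milk and progenitor genes stood out between the stages. All 12 measured genes were higher in adult basal cells, 7 of them at least 4-fold, against 8.54% of all genes, and the median log2 ratio was 4.86. Of the 7, the rule used Ltf, Trf and Lalba but not Csn1s1, Csn1s2a, Csn2 and Spp1. The rule keeps the number of progenitor genes in a cell below its number of basal genes. The median number of basal genes was 7 in adult and 6 in pubertal basal cells. Csn1s1 had 978 CPM against 4.07, a log2 ratio of 7.59 (7.09 to 8.11) that was 7.64 in the run and 7.37 outside it. Within the run its level was uneven over title numbers. It reached 26110 CPM in cell 106, but at most 1220 CPM, in cell 177, among basal cells numbered 117 to 188. In the cells outside the run, 1 cell held 81.0% of the reads, and without it the ratio was 5.06. Csn1s2a had 455 CPM and no read in puberty, at least 818-fold higher, with 63.7% of its reads in 1 cell. Csn2, or beta-casein, had 333 CPM against 0.185, which was 1 read, a log2 ratio of 8.14 (7.36 to 8.38). Over 4 caseins together, Csn3 included, 1 cell held 24.4% of the adult basal reads, and 1 cell held 82.3% of those outside the run. Spp1, which encodes osteopontin, and Trf were higher by 7.79 and 4.75 on the log2 scale, but by 2.81 and 1.99 outside the run. Ltf was split most, with 5.26 in the run and −0.25 outside it. Csn3 was high at both stages, with 2196 and 1815 CPM.

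These ratios come beside high levels in the progenitor class. That class held 30621 CPM of Csn3 and 19677 of Trf in the adult, and its cells made up 7.89% of the retained adult and 9.36% of the retained pubertal cells. The part of such RNA in the basal values was not tested.

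Of 19 measured secreted signals, 3 were at least 4-fold lower in adult basal cells, against 10.9% of all genes, and 1 higher, against 8.54%, with a median log2 ratio of −0.09. Nrg1 had 181 CPM in adult and 1910 CPM in pubertal basal cells, a log2 ratio of −3.39 (−3.98 in the run and −2.11 outside it), and was detected in 64.4% and 92.6% of cells. Inhba, a subunit of activin, had 2 reads in 1 adult basal cell and was detected in 24.1% of pubertal ones, a log2 ratio of −5.15 (−5.39 to −4.61). Il33, a cytokine of epithelia, had 21.8 CPM against 208. Wnt10a went the other way, with 63.8 CPM against 0.370, which was 2 reads, a log2 ratio of 5.56 (4.78 to 5.96).

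Of 15 measured receptors and surface proteins, 2 were at least 4-fold higher (Lgr6 and Ntrk3), against 8.54% of all genes, and none lower, with a median of 0.58. Lgr5 had 79.2 CPM in the adult and 20.4 in puberty, with 46.5% and 9.26% of cells detecting it, while Lgr4 had 436 and 1489 CPM, a log2 ratio of −1.77 that did not reach 4-fold. Lgr6 had a log2 ratio of 4.83 that rested on 1 cell with 88.0% of its reads. Of 11 measured integrin and hemidesmosome genes 1 (Dsc3) was at least 4-fold lower, against 10.9% of all genes, and Pdpn had a log2 ratio of −1.22.

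Among genes taken by rank, Plet1, a surface protein of epithelial progenitors, had the highest adult ratio, with 475 CPM against 23.3 and a log2 ratio of 4.29. Fhod3, a formin that assembles actin in muscle, had 263 against 18.1, and its ratio of 3.78 was the same in the run (3.78) and outside it (3.79). Within the run Fhod3 was uneven, at 5060 CPM in cell 103 and at 0 in most basal cells numbered 145 to 188. Cyp1b1 followed at 3.60, and Fbxo33, Gadd45g, Fem1b, Clca3a1, Ltbp2, Nfkbia and Etfa lay between 2.40 and 2.57. Lmo7 was the lowest at −3.74, Ctnnd2, a delta-catenin, had −2.59, and Zfp868, Sinhcaf, Zfhx3, Pip4p2, Uhrf1bp1l and Tmem263 lay between −3.52 and −2.42. The contrast with puberty did not always follow that with the other adult cells. Lmo7 was low against both, and Plet1 was lower than in the other adult cells (log2 ratio −1.33).

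**Figure D5:**
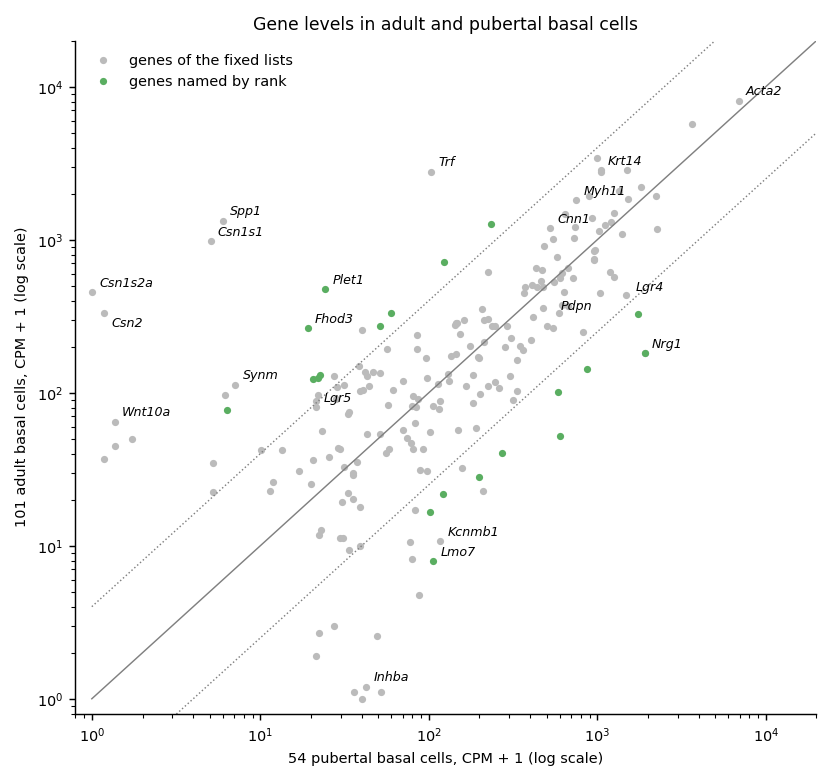
Summed level of list genes (grey) and of the genes taken by rank (green) in adult basal cells against pubertal basal cells, in CPM plus 1 on log axes. The solid line marks equal levels and the dotted lines 4-fold; Csn1s1 and Spp1 lie far on the adult side and Nrg1 on the pubertal side.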

How the data were processed

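Per the labels and the study's methods, libraries of single cells were made with the Nextera XT kit and sequenced in pairs, with no molecular identifiers. The authors deposited unnormalised counts, the number of read pairs assigned to each gene in each cell. They aligned with Subread to mm10 and counted by featureCounts, using the RefSeq gene models that Rsubread supplies. Versions and the use of strand are not given in the sources used here, so overlapping, antisense and near-identical genes are uncertain. The combined table held the same counts as the 444 tables of single cells.

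Of 27179 identifiers, 25275 matched a current gene of GRCm38.p6; the rest held 1.84% of read pairs. Setting aside 15 genes of mitochondria and 124 of ribosomal proteins left 25136 genes. Class sums used counts thinned to 100000 read pairs per cell (seed 1). With 1 sample per stage no test was run. Shares carry Clopper-Pearson intervals, and log2 ratios of sums the exact binomial interval of their split, at the 95% level; amplified copies are counted separately, so they cover counting error only. A count of 0 was bounded at 3 counts over the class. The script was tested on simulated data. Python 3.11.15, numpy 2.4.6, pandas 2.3.3, scipy 1.17.1 and, for TMM factors as an alternative scaling, R 4.3.3 with edgeR 4.0.16 were used.

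Members of the lists could all be named. Other genes were taken by rank: outside the lists and the rule, at 50 CPM or more in adult basal cells, detected in at least 50% of them, with no cell holding 25% or more of the sum and the same sign in both sets (12 highest ratios); the same in the other adult cells with detection in at least 30% (10 lowest); and, against pubertal basal cells, the 10 highest and 10 lowest by the same filters, lists included. Symbols starting with Gm or ending in Rik were passed over, and 1 gene taken by rank is not reported here. The members, the lists and the rules were chosen with earlier results of these data known. Fewer cells passed the coverage filter here than the study shows, so the cells are not the same set.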

Additional observations from a re-analysis of the deposited data

Results flagged for a closer look

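Emcn, an endothelial gene, had a log2 ratio of basal over other cells of −5.54 in the adult and 2.44 in puberty, and Pdgfrb, a pericyte gene, −2.65 and 2.52. Both were singled out because the direction was opposite at the 2 stages; the difference was not tested. In the adult, 1 non-basal cell held 99.6% of the Emcn reads and 1 held 84.6% of the Pdgfrb reads, and the Pdgfrb ratio was 0.31 in cells outside the run 48 to 188.

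Among the adult cells that failed the coverage filter and entered no comparison, 38 of 71 (53.5%, 41.3 to 65.5%) met the marker rule for basal cells.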

How the results depend on the processing

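The share of basal cells stayed between 62.5% and 71.7% under 6 other settings of the rule and filter. The number of genes at least 4-fold higher and lower than in other adult cells was 585 and 518 with a prior of 10 CPM, 253 and 279 with a floor of 100 CPM, and 2268 and 1622 with no floor, all of which follow from how these settings are built; without the highest cell of each gene 453 were lower, and outside cells 48 to 188 it was 1916. Against pubertal basal cells these numbers were 267 and 334, 101 and 146, and 1383 and 1572; without the highest cells they were 409 and 454, and outside the run 1910 were lower. With a floor of 100 CPM, 2778 genes were measured and 9.11% of them were at least 4-fold higher than in other adult cells. The genes at least 4-fold higher then numbered 3 in the oxytocin list, 0 in the transcription factors and 2 in the integrins. The secreted signals had 8 and the receptors 1. Without the highest cells the genes at least 4-fold higher numbered 11 in the basement membrane and 5 in the receptors, against 18.5% of all genes. In cells 48 to 188 these numbers were 11 and 7, against 24.9% of all genes. There 4 pan-luminal genes were lower, against 13.2%. Outside the run 5 hormone-sensing genes were lower, against 26.5% of all genes. Asking for 5 rule genes, or for 100 CPM per rule gene, gave 2 pan-luminal genes lower, against 13.6% and 13.7% of all genes. Leaving out the other adult cells with 3 or more fibroblast markers was a setting added after seeing the data. It gave 11 basement membrane genes and 8 receptors higher, against 17.5% of all genes, and 2 pan-luminal genes lower, against 12.8%. The median contraction genes per cell were 15.0 when 5 reads were asked, and Csn1s1 was then detected in 27.7% of cells, against 64.4% unthinned. Log2 ratios over other adult cells that turned sign were, in cells 48 to 188, Col1a1 3.12, Dpt 4.29, Emcn 0.17, Nid1 6.56 and Prom1 0.77; outside the run, Aldh1a3 0.38, Itga2 0.14, Pdgfrb 0.31 and Tshz2 −1.06; with 5 rule genes, Tshz2 −0.75; and without the cells with fibroblast markers, Col1a1 3.22, Dpt 4.73 and Nid1 2.42. Over pubertal basal cells they were Aurkb 0.43 and Cacna1c 1.26 without the highest cells, and Hspa1a −0.46, Lgr6 −0.19 and Ltf −0.25 outside the run. Where no construction explains a shift, the cause was not tested. The median of all genes moved to 0.39 without the highest cells, 0.37 in the run, −0.18 outside it and 0.14 with no floor, and to −0.38 for cells outside the run over puberty. TMM scaling and unthinned counts moved none of the counts by over 1.5 times. No paired analysis was possible because no label ties cells of the 2 stages to each other and no test was run. Depth limits genes near 10.0 CPM per cell, which is 1 read pair.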
